A study of Mus musculus with 12 samples.

Results

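Serine synthesis and the folate cycle supply cells with serine, glycine and activated carbon units for nucleotides and methyl groups. The levels of 9 enzymes of this route were followed in mouse embryonic fibroblasts (MEF). The members are Phgdh, Psat1 and Psph of serine synthesis, Shmt2, Mthfd2, Mthfd1l and Aldh1l2 of the mitochondrial folate route, and Shmt1 and Mthfd1 of the cytosolic route, taken by gene symbol. All 9 symbols were found among the 43280 entries of the table of Control and 2MUT cells, and 8 among the 23930 entries of the table of 2-HG(-) and 2-HG(+) cells, which does not list Phgdh. The 9 enzymes were chosen with their values in both comparisons known. Their changes are therefore described with their errors and without p-values, and a count of enzymes past the threshold is printed beside the share of all genes past it with nothing read from it.

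The same kind of cell was used throughout, a spontaneously immortalized MEF culture from the C57BL/6 strain (embryonic day 13.5). 2MUT cells stably expressed a FLAG-tagged, cancer-associated mutant of human IDH2 from a retrovirus and were selected with puromycin, and Control cells carried the empty vector. The mutant enzyme turns 2-oxoglutarate into 2-hydroxyglutarate (2-HG). In the other experiment, MEF cells received 300 μM of membrane-permeant 2-HG for 24 h, 2-HG(+), or no 2-HG, 2-HG(-). The labels give DMSO for the 2-HG(-) cells, whereas the study's text calls them non-treated. Each group had 3 libraries. The study's methods speak of triplicate experiments, and no source used here says whether these were separate cultures, so any p-value measures the spread between these libraries, which may be technical. 2MUT and Control are populations selected after separate infections, and effects of the mutant cannot be told apart from other differences between these populations.

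In the Ion AmpliSeq method used for the libraries, primers copy a short stretch of every transcript before sequencing. Values are RPM, the reads of a gene for each 1000000 reads that were assigned to any gene. Because a value depends on how well its target amplifies, levels are not compared between genes. The tables were normalized separately and list different entries, so changes were computed within a table only. Library depth was 6472439 to 7313602 reads in the first table and 14959318 to 18363768 in the other, and every enzyme other than Phgdh had at least 109 reads in every library. A value reflects the RNA of the whole culture, so fewer expressing cells and less RNA per cell cannot be told apart. Of the fibroblast markers, 8 of 10 averaged at least 10 RPM in Control and 2MUT cells, and 7 of 9 in the 2-HG experiment, whereas Lum and, where listed, S100a4 were near 0, as Thy1 was under 10 RPM in the 2-HG experiment, with means of 2.76 and 5.23 RPM. The fibroblast list summed to 14414 to 16383 RPM in Control, 13005 to 13455 RPM in 2MUT, 21605 to 23249.7 RPM in 2-HG(-) and 15239 to 16263 RPM in 2-HG(+). The sum in 2MUT holds opposite moves. The means of Col3a1 (144 to 28.0 RPM), Thy1 (80.4 to 24.2 RPM) and Vim (3109.9 to 1265 RPM) were lower than in Control. Those of Col1a1 (6238 to 5200 RPM), Col1a2 (1378 to 779 RPM) and Pdgfrb (182 to 151 RPM) were also lower, and those of Fn1 and Pdgfra higher. With 2-HG the means of Col1a2 (8653 to 4916 RPM), Col1a1 (8624 to 6864 RPM), Col3a1 (477 to 186 RPM), Pdgfrb (307 to 106 RPM) and Pdgfra (80.5 to 30.7 RPM) were lower. Epithelial markers summed to at most 1.65 RPM and endothelial markers to at most 3.09 RPM in any library. Of the leukocyte markers, Ptprc was at or near 0, and the list summed to 19.5 to 23.9 RPM in Control, 41.6 to 53.0 RPM in 2MUT and 21.0 to 25.4 RPM in the 2-HG experiment. The higher sum in 2MUT came mostly from Cd14, with a mean of 38.5 RPM beside 12.2 RPM in Control, whereas Cd68 averaged 6.62 RPM beside 9.25 RPM.

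In the serine route, Phgdh oxidizes the glycolytic intermediate 3-phosphoglycerate, Psat1 adds an amino group from glutamate, and Psph removes the phosphate to leave serine. Shmt1 and Shmt2 then pass a carbon from serine to tetrahydrofolate and release glycine. In mitochondria, Mthfd2 oxidizes the carried carbon, Mthfd1l releases it as formate and Aldh1l2 oxidizes it to CO2 while making NADPH. In the cytosol, the trifunctional enzyme Mthfd1 takes formate back onto folate, from where purines, thymidylate and methionine draw. Fast-growing and embryonic cells are known for high levels of the mitochondrial enzymes.

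After 24 h of 2-HG, each of the 8 listed enzymes was higher, by 1.49 to 4.93 times as a ratio of group means. In 2MUT cells, the same 8 enzymes lay between 0.698 and 1.13 times the Control mean. The median log2 fold change of the 8 enzymes was 1.67 with 2-HG, beside -0.02 for the 10384 genes tested, and -0.14 in 2MUT, beside 0.01 for the 11065 genes tested. Past a limma adjusted p of 0.05 in the 2-HG experiment were 8 of the 8 enzymes, all higher, against 16.1% of all genes tested. In 8 of 8 the 3 libraries with 2-HG also lay above the 3 without it, which held for 22.2% of all genes. In 2MUT cells, 0 of 8 passed limma's adjusted threshold in either direction, against 33.8% of all genes, and 2 of 8, Shmt1 and Shmt2, had an unadjusted p under 0.05, against 44.2% of all genes. Of the 8 enzymes, 0 had all 3 libraries of 2MUT on one side of Control, against 47.5% of all genes. edgeR also called 0 of 8, against 1818 genes higher and 1947 lower among the 11065 tested. DESeq2 called 2 of 8, Shmt1 and Shmt2, both lower, against 1838 genes higher and 1910 lower. All changes below are log2 fold changes on the log2(RPM + 1) scale with the standard error (SE) of the limma fit, for 3 libraries against 3.

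**Figure D1:**
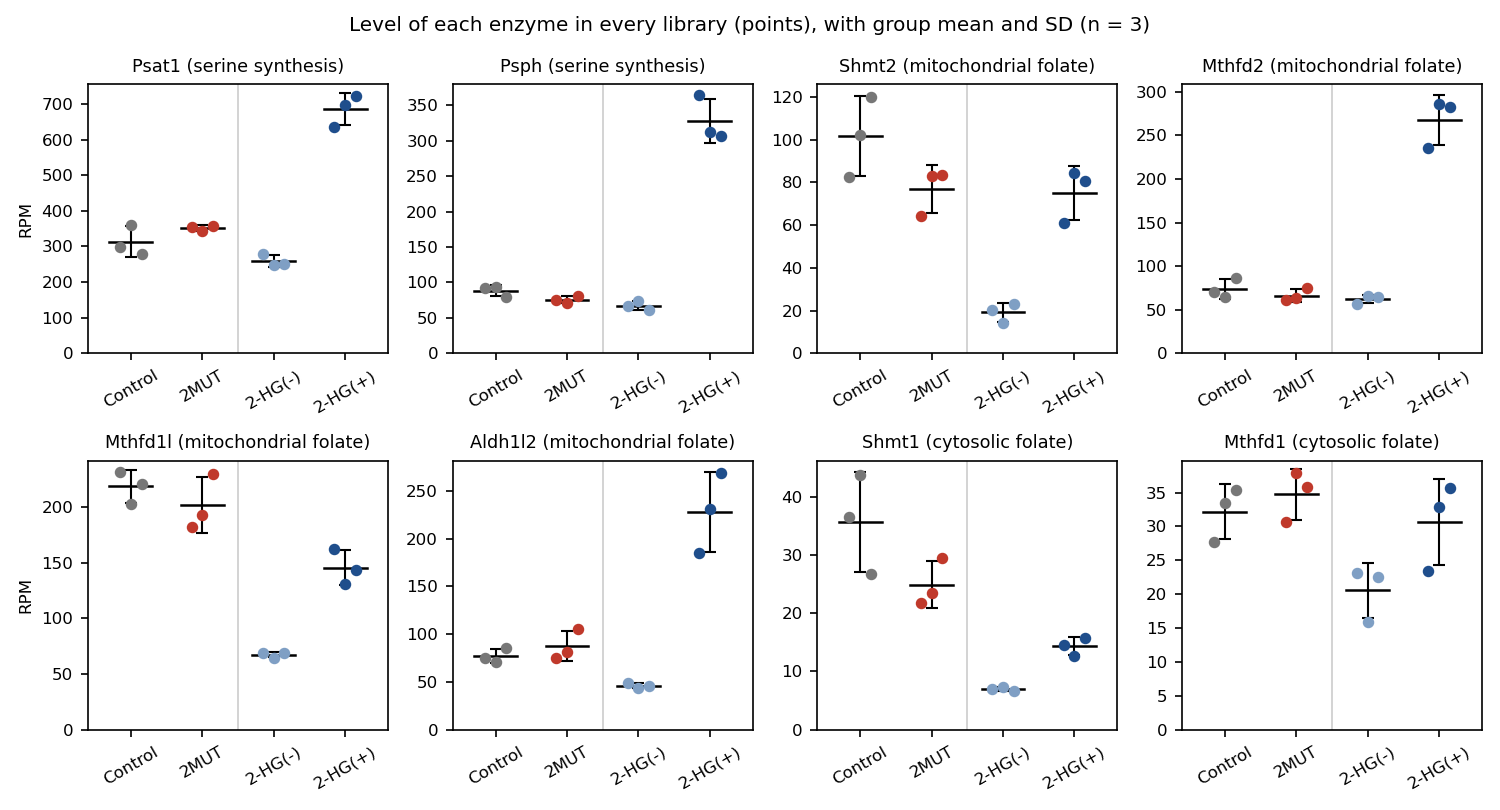
Level (RPM, linear axis from 0, scaled for each gene) of the 8 enzymes in every library, with points for libraries and lines for the mean and SD of 3; a grey line parts the separately normalized tables. In every panel the 3 libraries with 2-HG lie above the 3 without it, narrowly for Mthfd1 (23.2 and 23.5 RPM at the closest), whereas Control and 2MUT overlap.

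Phgdh, the entry step, could not be followed. It was listed at 0 RPM in the 3 Control libraries and at 0.618, 0 and 0.138 RPM in those of 2MUT, which are 4, 0 and 1 reads. Pcna and Ccnb1, which dividing cells use, were also listed at 0 in all 6 of these libraries, so that a value near 0 in this table is given only as listed, with no fold change. The gene lies on chr3:98313170-98339990, on the reverse strand of GRCm38 in GENCODE M21.

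Psat1 lies on the reverse strand at chr19:15904678-15947337. The sequence upstream of its RefSeq start is given with those of Shmt2, Mthfd2 and Mthfd1l. For these genes 248 to 250 bases lay outside exons annotated by GENCODE. For Phgdh it was 229 bases, and for Psph, Shmt1, Mthfd1 and another start of Psat1 it was 0, so theirs are not given. The RefSeq windows on GRCm38.p6 end at the annotated RefSeq start, run 5′ to 3′ on the strand of the gene and leave out bases that GENCODE annotates as exon, and capitals mark CCAAT on either strand. The Psat1 window is chr19:15925060-15925309 on the reverse strand. It and the Mthfd2 window lie inside the gene spans given here, which GENCODE extends to starts farther upstream.

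Psat1: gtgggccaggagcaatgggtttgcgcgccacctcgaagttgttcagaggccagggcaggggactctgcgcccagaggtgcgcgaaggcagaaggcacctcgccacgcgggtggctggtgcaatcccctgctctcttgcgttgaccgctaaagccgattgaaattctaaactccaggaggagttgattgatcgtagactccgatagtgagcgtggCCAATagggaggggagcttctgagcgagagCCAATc

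Psat1 measured 277, 247 and 250.3 RPM without 2-HG and 635, 698 and 722 RPM with it. The treated libraries were all more than the highest untreated library, with no overlap. Its mean went from 258 ± 16.8 RPM to 685 ± 45.1 RPM (SD, n = 3), a change of 1.40 (SE 0.10), 55th from the top among 10384 genes. In Control cells Psat1 measured 299, 361 and 277 RPM, and in 2MUT cells 355, 343 and 357 RPM. The 3 2MUT values fell within the spread of Control, whose second library was the highest of the 6. The change was 0.18 (SE 0.11), and it was 0.29 without the second Control library, where limma's threshold was passed.

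Psph, on the reverse strand at chr5:129765558-129787449, overlaps Cct6a on the other strand, and no source used here says whether reads were counted by strand, so reads from the overlap cannot be assigned. Psph measured 67.0, 73.2 and 61.2 RPM without 2-HG and 364, 313 and 307 RPM with it. All treated values stood far above the untreated ones, and here the first treated library was the highest, while for Psat1 it was the lowest of the 3. On average it went from 67.2 ± 5.98 RPM to 328 ± 31.7 RPM (SD, n = 3), a change of 2.27 (SE 0.11), 11th from the top among all genes and within its error of that of Aldh1l2 (2.26, SE 0.14), which had the higher ratio of group means. Control cells had 92.6, 93.2 and 79.7 RPM, and 2MUT cells 75.7, 70.4 and 81.0 RPM. The groups overlapped at their edge, with the lowest Control library under the highest 2MUT library, and the change was -0.22 (SE 0.11).

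Of the mitochondrial folate enzymes, Shmt2 lies on the reverse strand at chr10:127517123-127522444, Mthfd2 on the reverse strand at chr6:83305691-83325908, Mthfd1l on the forward strand at chr10:3973118-4167081 and Aldh1l2 on the reverse strand at chr10:83487450-83534140. Shmt2 overlaps Ndufa4l2 and Aldh1l2 overlaps D10Wsu102e, each on the opposite strand. The windows shown are chr10:127522445-127522694 for Shmt2 on the reverse strand, chr6:83317607-83317854 for Mthfd2 on the reverse strand and chr10:3972825-3973074 for Mthfd1l on the forward strand.

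Shmt2: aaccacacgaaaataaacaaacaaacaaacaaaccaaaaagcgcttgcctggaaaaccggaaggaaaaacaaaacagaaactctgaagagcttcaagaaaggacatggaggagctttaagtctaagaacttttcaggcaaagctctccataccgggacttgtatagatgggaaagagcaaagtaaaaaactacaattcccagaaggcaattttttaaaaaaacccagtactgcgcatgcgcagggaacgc

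Mthfd2: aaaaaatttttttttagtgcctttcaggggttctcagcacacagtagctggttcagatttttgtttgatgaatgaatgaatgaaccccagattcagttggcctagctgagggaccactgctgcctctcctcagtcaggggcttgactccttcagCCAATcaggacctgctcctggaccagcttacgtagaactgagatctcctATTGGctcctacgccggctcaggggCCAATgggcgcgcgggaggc

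Mthfd1l: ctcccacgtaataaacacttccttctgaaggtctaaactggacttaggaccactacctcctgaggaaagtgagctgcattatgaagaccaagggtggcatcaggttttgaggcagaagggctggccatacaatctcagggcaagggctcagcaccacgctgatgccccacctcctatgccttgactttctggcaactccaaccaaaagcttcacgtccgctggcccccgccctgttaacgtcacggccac

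The Mthfd2 window holds 3 CCAAT boxes and the Psat1 window 2, whereas those of Shmt2 and Mthfd1l hold 0. Among the full RefSeq windows of 300 bases, 6 of 9 windows of the enzymes, from 6 of 8 genes, hold CCAAT, and so do 37.4% of all 32851 windows. GGGCGG is in 5 of 9, against 35.7% of all. Both of these motifs were chosen after the sequences had been seen. TGATGNAA, the core of the composite element of ATF4 and C/EBP, and CACGTG, the E-box that MYC and other factors bind, were each found in 0 of 9, against 3.97% and 7.15% of all windows. Matches on both strands were counted, and no match means only that these letters are not in the window.

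Shmt2, which starts the mitochondrial route from serine, measured 20.5, 14.2 and 22.9 RPM without 2-HG and 60.8, 84.3 and 80.5 RPM with it. The lowest treated library exceeded the highest untreated library by a wide margin. The mean went from 19.2 ± 4.48 RPM to 75.2 ± 12.6 RPM (SD, n = 3), a change of 1.93 (SE 0.19). In Control cells it measured 82.7, 102 and 120.2 RPM, and in 2MUT cells 64.1, 82.9 and 83.7 RPM. The groups touched at the lowest Control library, which was below 2 of the 3 2MUT libraries. The change was -0.39 (SE 0.15), and the value was -0.53 without the first Control library, where limma's threshold was passed.

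Mthfd2, the mitochondrial dehydrogenase and cyclohydrolase, measured 56.6, 65.4 and 64.0 RPM without 2-HG and 235, 286 and 283 RPM with it. Its untreated libraries were close together and the treated ones were all high, the first least so. Its mean went from 62.0 ± 4.73 RPM to 268 ± 28.5 RPM (SD, n = 3), a change of 2.09 (SE 0.11), 18th from the top. In Control cells it measured 70.9, 64.7 and 86.8 RPM, and in 2MUT cells 61.0, 63.0 and 74.7 RPM. These ranges overlapped, and the change was -0.15 (SE 0.14).

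Mthfd1l, the mitochondrial formate-releasing enzyme, measured 68.7, 64.7 and 68.9 RPM without 2-HG and 162, 131 and 143 RPM with it. Untreated libraries were nearly alike, and as for Psph the first treated library was the highest. The mean went from 67.4 ± 2.36 RPM to 146 ± 15.7 RPM (SD, n = 3), a change of 1.09 (SE 0.10) and the smallest of the mitochondrial enzymes. Control cells had 231, 203 and 221 RPM, and 2MUT cells 182, 193 and 229.8 RPM. The third 2MUT library lay among the Control libraries, and the change was -0.12 (SE 0.11).

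Aldh1l2, the mitochondrial formyl-folate dehydrogenase, measured 49.2, 43.5 and 45.9 RPM without 2-HG and 185, 231 and 268 RPM with it. The treated libraries differed among themselves but were all far above the untreated ones. On average it went from 46.2 ± 2.87 RPM to 228 ± 41.8 RPM (SD, n = 3), a change of 2.26 (SE 0.14), 12th from the top, and a ratio of group means of 4.93, beside 4.88 for Psph. In Control cells it measured 75.5, 70.8 and 85.3 RPM, and in 2MUT cells 75.4, 81.4 and 105 RPM. Only the third 2MUT library stood above all Control libraries, and the change was 0.16 (SE 0.14).

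Of the cytosolic enzymes, Shmt1 lies on the reverse strand at chr11:60788104-60811718 and overlaps Smcr8, and Mthfd1 lies on the forward strand at chr12:76255298-76319803 and overlaps the antisense gene Gm34868. Shmt1, the cytosolic partner of Shmt2, measured 7.025, 7.29 and 6.66 RPM without 2-HG and 14.6, 12.7 and 15.7 RPM with it. The groups did not overlap. The mean went from 6.99 ± 0.312 RPM to 14.3 ± 1.55 RPM (SD, n = 3), a change of 0.94 (SE 0.13), 277th from the top. Control cells had 36.5, 43.7 and 26.7 RPM, and 2MUT cells 21.8, 23.4 and 29.4 RPM. The third library of each group lay inside the other group's range. The change was -0.49 (SE 0.19), the lowest of the 8 enzymes, and it was -0.67 without the third Control library, where limma's threshold was passed.

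Mthfd1 measured 23.2, 15.9 and 22.6 RPM without 2-HG and 23.5, 32.9 and 35.6 RPM with it. The groups did not overlap, but the first treated library was barely above the highest untreated one. Its mean went from 20.6 ± 4.04 RPM to 30.7 ± 6.37 RPM (SD, n = 3), a change of 0.55 (SE 0.19) and the smallest of the 8. Mthfd1 passed the adjusted threshold in 6 of 16 alternative analyses, among them those with edgeR and DESeq2 and that without the first treated library, where its change was 0.73. It did not pass without any other library of the 6, with a lowest change of 0.39 when the second untreated library was left out. In Control cells it measured 27.7, 33.5 and 35.4 RPM, and in 2MUT cells 30.6, 37.9 and 35.8 RPM. These ranges lay on top of each other, and the change was 0.11 (SE 0.15).

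**Figure D2:**
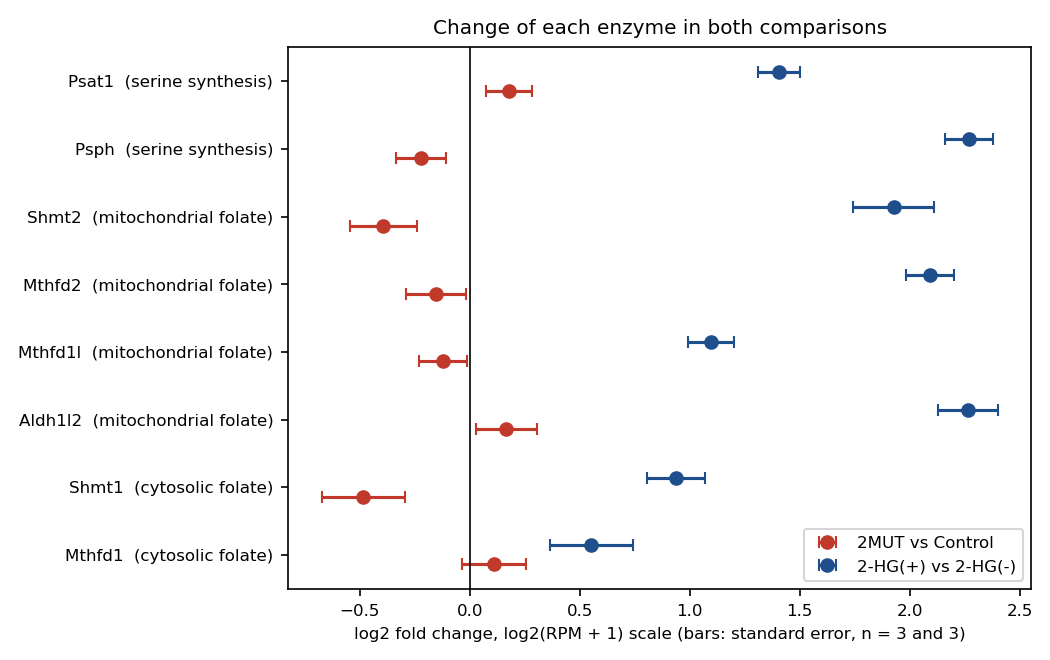
Log2 fold change of the 8 enzymes on the log2(RPM + 1) scale, 2MUT against Control in red and 2-HG(+) against 2-HG(-) in blue, with bars for the SE (n = 3 and 3). Blue points run from 0.55 for Mthfd1 to 2.27 for Psph, and red points from -0.49 for Shmt1 to 0.18 for Psat1.

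Set beside each other, the change of the 4 mitochondrial enzymes with 2-HG ran from 1.09 to 2.26, with a median of 2.01, and those of the cytosolic enzymes were 0.55 and 0.94. The changes of Mthfd1l and Shmt1 lay within their errors of each other, and in DESeq2 that of Shmt1, whose low level the added 1 RPM shrinks, was 1.06, while the other mitochondrial enzymes were well above both. In 2MUT cells the mitochondrial enzymes ran from -0.39 to 0.16 and the cytosolic enzymes were at -0.49 and 0.11. The change in 2MUT minus the change with 2-HG was lowest for Psph, at -2.49 (SE 0.15), followed by Shmt2 at -2.32 (SE 0.27), Mthfd2 at -2.25 (SE 0.18) and Aldh1l2 at -2.10 (SE 0.21). It was -1.42 (SE 0.25) for Shmt1, -1.23 (SE 0.15) for Psat1, -1.22 (SE 0.16) for Mthfd1l and -0.44 (SE 0.25) for Mthfd1. Given as a description, these came from 1 limma fit over the 12 libraries.

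A mitochondrial enzyme was also divided by its cytosolic counterpart within each library, as a log2 ratio of RPM + 1, in which the change and not the level can be read. Shmt2 over Shmt1 was 1.42, 0.88 and 1.64 without 2-HG and 1.99, 2.64 and 2.28 with it. The treated libraries were all higher, and the change in the mean was 0.99 (SE 0.30). In Control cells this ratio was 1.16, 1.21 and 2.13, and in 2MUT cells it was 1.51, 1.78 and 1.48. The third Control library was the highest of these 6, and the change was 0.09 (SE 0.33).

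Mthfd2 over Mthfd1 was 1.25, 1.97 and 1.46 without 2-HG and 3.27, 3.08 and 2.95 with it. The lowest treated ratio was well above the highest untreated one, and the change was 1.54 (SE 0.23). In 2MUT cells the change of this ratio was -0.26 (SE 0.16), with overlapping libraries. Mthfd1l over Mthfd1 was 1.53, 1.96 and 1.57 without 2-HG and 2.74, 1.96 and 1.98 with it. Here only the first treated library was clearly higher and the rest met the second untreated one, and the change was 0.54 (SE 0.29). In 2MUT cells it was -0.23 (SE 0.17).

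**Figure D3:**
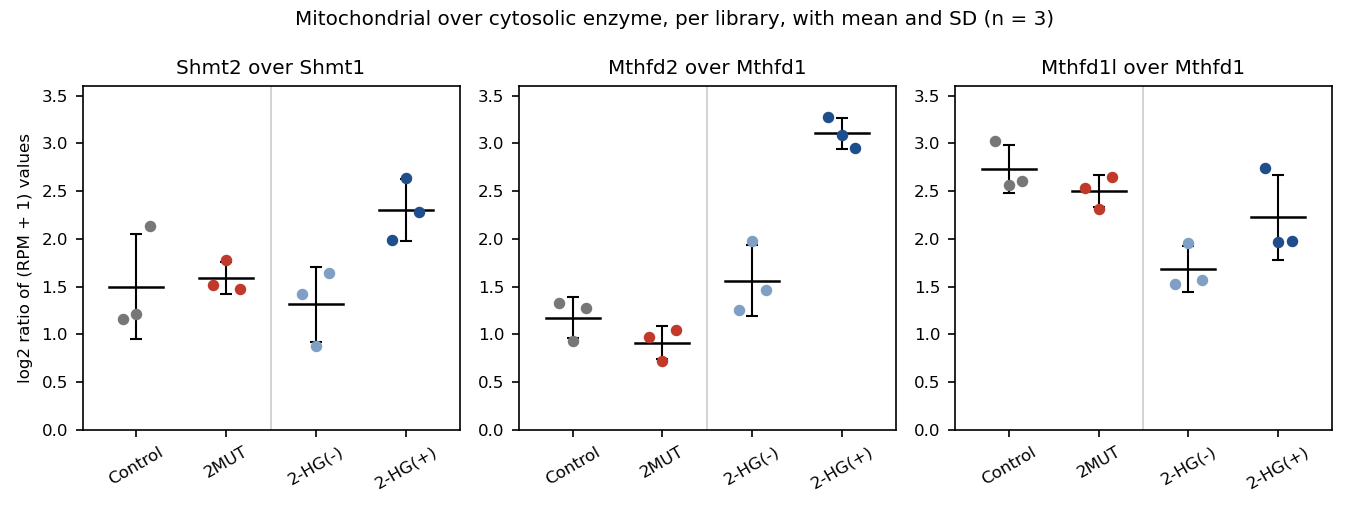
Log2 ratio of a mitochondrial to a cytosolic enzyme (RPM + 1) in every library, with points for libraries and lines for the mean and SD of 3. With 2-HG the ratio of Mthfd2 to Mthfd1 went from a mean of 1.56 to 3.10 and that of Shmt2 to Shmt1 from 1.31 to 2.30, whereas the Mthfd1l ratio rested mainly on 1 treated library.

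Over the 12 libraries, each centred on the mean of its table, Pearson r was 0.98 between Mthfd2 and Aldh1l2 and 0.97 between Psph and Mthfd1l. It was lowest, at 0.47, between Shmt1 and Mthfd1. These values include the difference between untreated and treated libraries, and libraries of a table share their normalization. Since the enzymes were chosen with their rise with 2-HG known, high values were largely set by that choice. Within 2-HG(+), the first library was the highest for Psph and Mthfd1l. It was the lowest for Psat1, Shmt2, Mthfd2, Aldh1l2 and Mthfd1. Among 6708 other genes with at least 10 RPM on average in each table, the 5 with the pattern most like that of Mthfd2 were Cth, Gars, Cdca7l, Stbd1 and Rpf2, each with an r of 0.98. With 2-HG their log2 fold changes were 3.44 for Cth, 1.59 for Gars, 0.87 for Cdca7l, 3.17 for Stbd1 and 1.01 for Rpf2, and in 2MUT cells they ran from -0.20 to 0.04. Cth makes cysteine by transsulfuration, which takes its carbon chain from serine, and Gars charges glycine to its tRNA.

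Other genes that feed or use the folate pool were taken from a list of 45 that held no member, in 6 groups by role. With 2-HG, 13 of the 30 tested rose, against 16.1% of all genes, and 1 fell, against 16.7%. In 2MUT cells, 6 of 34 rose, against 16.5%, and 10 fell, against 17.3%. Each p-value below is from limma with Benjamini-Hochberg adjustment over all genes tested. The list, the regulators and the markers were also chosen with earlier results of these data known, which these p-values do not take into account. Of the list, 16 genes with 2-HG and 18 in 2MUT did not pass.

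Of the genes of folate entry and retention, 1 of 5 tested rose with 2-HG, and of the other folate enzymes 1 of 3, against 16.1% of all genes. In 2MUT cells 1 of 5 entry genes rose, and 2 of 4 of the other folate enzymes fell. Slc19a1, the reduced folate carrier, averaged 44.3 ± 1.56 RPM without and 99.6 ± 5.36 RPM with 2-HG, a rise (SD, n = 3; log2 fold change 1.15, adjusted p = 3.1e-05 in limma) and measured 36.3 ± 2.50 RPM in Control cells against 31.0 ± 1.67 RPM in 2MUT cells (-0.22, adjusted p = 0.21 in limma). Tyms, thymidylate synthase, averaged 146 ± 15.3 RPM without and 243 ± 23.0 RPM with 2-HG, a rise (0.73, adjusted p = 0.0011 in limma), and fell from 31.1 ± 6.14 RPM to 14.3 ± 2.88 RPM in 2MUT (-1.07, adjusted p = 0.0014 in limma). Aldh1l1, the cytosolic counterpart of Aldh1l2, fell from 5.05 ± 1.72 RPM to 0.777 ± 0.218 RPM in 2MUT (SD, n = 3; log2 fold change -1.74, adjusted p = 0.00056 in limma), and was under 1 RPM and not tested in the 2-HG experiment. The 1 RPM added before the logarithm shrinks changes at such low levels, and for Aldh1l1 the change was -2.67 with edgeR, -2.69 with DESeq2 and -2.53 with 0.1 RPM added. In 2MUT cells Slc46a1, the proton-coupled folate transporter, rose at a low level, from 1.14 ± 0.250 RPM to 3.74 ± 1.47 RPM (1.10, adjusted p = 0.012 in limma), with 1.69 in edgeR, 1.72 in DESeq2 and 1.56 with 0.1 RPM added.

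Of the 6 enzymes of purine synthesis tested, 4 rose with 2-HG, beside 16.1% of all genes, and 4 fell in 2MUT, beside 17.3%. Atic, which uses formyl-folate in the last steps, rose by 0.77 with 2-HG (adjusted p = 0.0005 in limma), from 117 ± 8.59 RPM to 201 ± 17.3 RPM. Gart, the other formyl-folate user, rose by 0.68 with 2-HG (adjusted p = 0.0011 in limma) and fell by 0.32 in 2MUT (adjusted p = 0.027 in limma). Ppat, the committed step, rose by 0.55 with 2-HG (adjusted p = 0.0022 in limma) and fell by 0.70 in 2MUT (adjusted p = 0.00099 in limma). Pfas rose by 0.58 (adjusted p = 0.0042 in limma) and fell by 0.41 (adjusted p = 0.045 in limma) in turn. In 2MUT the call of Gart was lost in 6 of 16 alternatives, with adjusted p-values of 0.051 to 0.09 in limma without the second or the third Control library or any 1 of the 2MUT libraries. That of Pfas was lost in 7, with 0.091 to 0.14 in limma without the second or the third library of either group. Paics fell in 2MUT from 586 ± 22.0 RPM to 279 ± 12.9 RPM (-1.07, adjusted p = 7e-06 in limma), with 0.11 under 2-HG (adjusted p = 0.47 in limma).

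Around glycine, Gcsh, the carrier protein of the glycine cleavage system, rose in both comparisons, by 0.75 with 2-HG (adjusted p = 0.001 in limma) and by 0.59 in 2MUT (adjusted p = 0.02 in limma). Dld, the dehydrogenase that this system shares with other complexes, rose by 0.45 with 2-HG (adjusted p = 0.0032 in limma). Sardh, which breaks down sarcosine in mitochondria, fell in both, by 0.69 with 2-HG (adjusted p = 0.021 in limma) and from 11.6 ± 2.47 RPM to 2.88 ± 1.37 RPM in 2MUT (-1.73, adjusted p = 0.00063 in limma). In the methionine cycle, Mtr and Mtrr, methionine synthase and its reductase, rose with 2-HG by 0.78 (adjusted p = 0.00037) and 0.55 (adjusted p = 0.022) in limma. Mat2a, which makes S-adenosylmethionine, rose in 2MUT from 123 ± 12.9 RPM to 227 ± 8.65 RPM (0.88, adjusted p = 0.00011 in limma), with -0.05 under 2-HG (adjusted p = 0.79 in limma).

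Among genes that move or use serine, Cth rose most with 2-HG. It measured 10.2, 12.3 and 10.8 RPM without 2-HG and 123, 129.6 and 138 RPM with it, a change of 3.44 (SE 0.11, adjusted p = 2.4e-07 in limma) and second from the top of 10384 genes. In 2MUT cells its change was -0.20 (adjusted p = 0.31 in limma). Slc6a9, the glycine transporter GlyT1, rose in both comparisons, from 45.9 ± 5.19 RPM to 154 ± 17.0 RPM with 2-HG (1.73, adjusted p = 1.1e-05 in limma) and from 64.5 ± 3.93 RPM to 109 ± 1.80 RPM in 2MUT (0.75, adjusted p = 0.00028 in limma). Slc1a5, a transporter of glutamine and other neutral amino acids, rose by 0.56 with 2-HG (adjusted p = 0.01 in limma) and fell by 0.77 in 2MUT (adjusted p = 0.019 in limma). In 2MUT cells Sfxn1, which carries serine into mitochondria, fell from 182 ± 13.0 RPM to 102 ± 6.06 RPM (-0.83, adjusted p = 0.00013 in limma). Of the subunits of serine palmitoyltransferase in these cells, Sptlc1 rose by 0.90 (adjusted p = 0.0016) and Sptlc2 fell by 0.41 (adjusted p = 0.039) in limma. Slc1a4, a serine and alanine transporter, measured 203, 42.0 and 168 RPM in Control and 266, 278 and 249.7 RPM in 2MUT. Its change of 1.22 (adjusted p = 0.048 in limma) was 0.52 without the second Control library, which stood far below the rest, and the call was lost without any 1 of the 2MUT libraries, with adjusted p-values of 0.093 to 0.11 in limma. It was lost in 11 of 16 alternatives, also with edgeR (0.93, adjusted p = 0.084) and DESeq2 (0.94, adjusted p = 0.26), and the adjusted p ranged from 0.0056 to 0.29 over the 16.

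Several of these calls did not hold when single libraries were left out. In 2MUT, the call of Gart was lost without any 1 library other than the first Control library, with log2 fold changes of -0.34 to -0.29 in these fits. Pfas was lost without the second or the third Control library or the second or the third 2MUT library (-0.38 to -0.35), and Sptlc2 without the first Control library or any 1 of the 2MUT libraries (-0.46 to -0.29). Slc1a5 was lost without the second Control library or the second or the third 2MUT library (-0.72 to -0.64). Gcsh was lost without the first Control library or the first or the third 2MUT library (0.51 to 0.55). Slc46a1 was lost without the first or the second 2MUT library (0.99 and 0.92). With 2-HG, Mtrr was lost without the third 2-HG(-) library or the second or the third 2-HG(+) library (0.45 to 0.52), Sardh without the first or the third 2-HG(-) library (-0.57 and -0.70) and Slc1a5 without the third 2-HG(-) library (0.47).

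**Figure D4:**
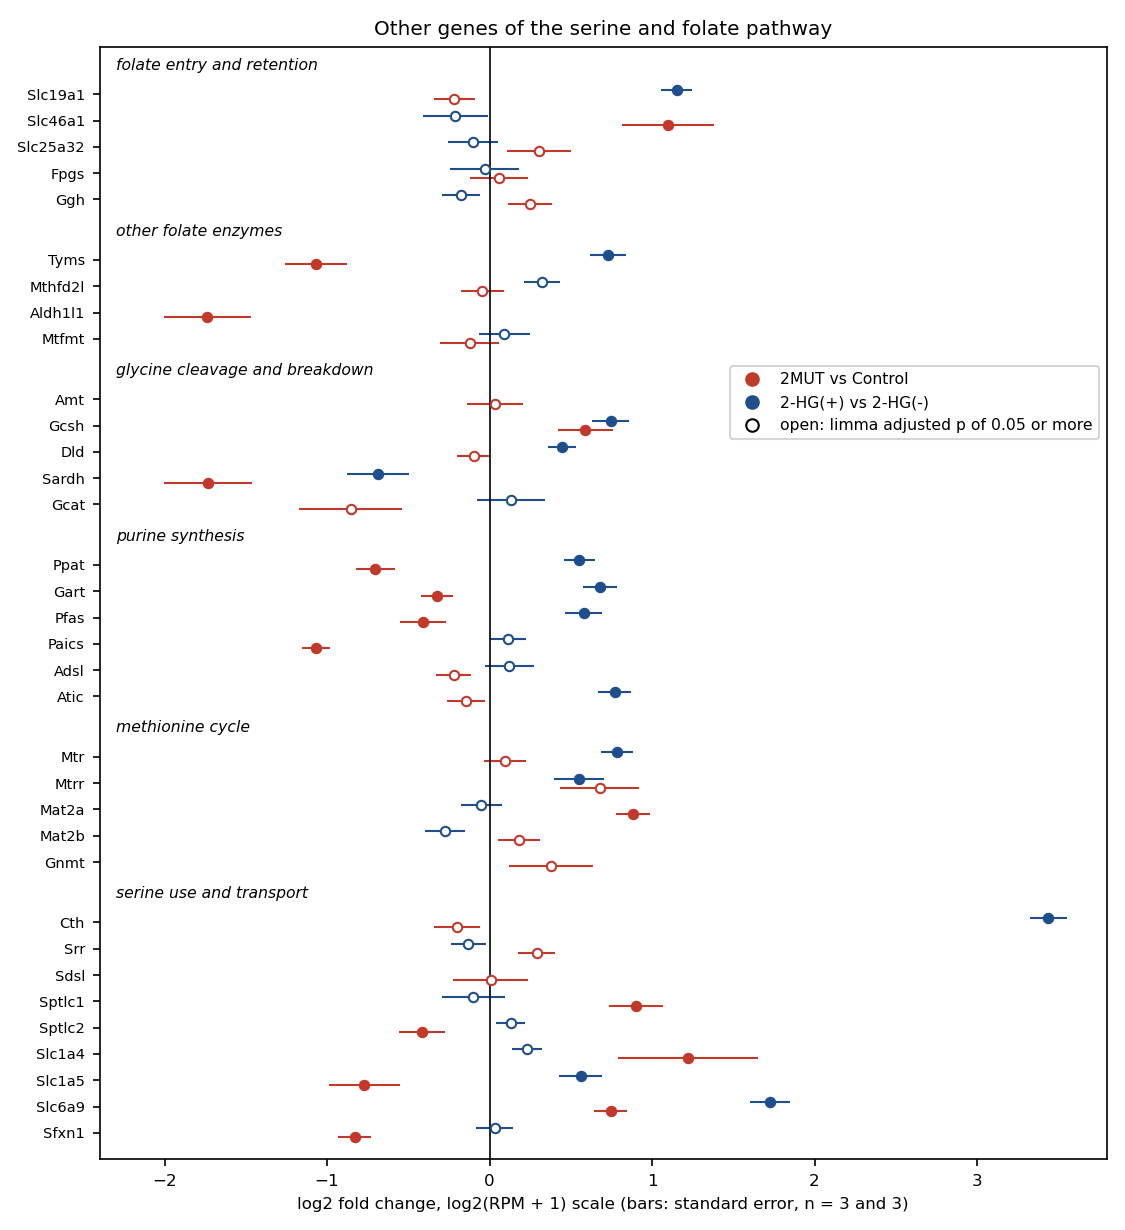
Log2 fold change on the log2(RPM + 1) scale of the tested genes of the list that are not among the 9 enzymes, grouped by role, 2MUT against Control in red and 2-HG(+) against 2-HG(-) in blue, with bars for the SE and open circles where limma's adjusted p was 0.05 or more. Cth with 2-HG, at 3.44, lies farthest to the right, and Tyms, Ppat, Gart, Pfas and Slc1a5 have filled points on opposite sides of 0.

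For Tyms, Ppat, Gart, Pfas and Slc1a5, which fell in 2MUT and rose with 2-HG, the change in 2MUT minus the change with 2-HG ran from -1.80 for Tyms to -0.99 for Pfas. These genes were picked for their opposite calls, so the difference is given as a description with no test.

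Regulators known for these enzymes and markers of proliferation are given beside them. Atf4, which is known to bind genes of serine synthesis and mitochondrial folate enzymes, measured 399, 533 and 358 RPM without 2-HG and 1250.4, 1189 and 1218 RPM with it. The treated libraries were all more than the highest untreated one, and the change was 1.52 (SE 0.14, adjusted p = 5.6e-05 in limma). In Control and 2MUT cells Atf4 was 564 ± 45.4 and 669 ± 21.8 RPM (SD, n = 3; 0.25, adjusted p = 0.052 in limma). Its 2MUT libraries (644, 677 and 685 RPM) lay above those of Control (559, 522 and 612 RPM). The groups were apart in this way, in either direction, for 47.5% of all genes. Myc, another activator of these genes, rose with 2-HG by 0.80 (adjusted p = 0.001 in limma) and its change in 2MUT was -0.30 (adjusted p = 0.12 in limma). Nfe2l2, which encodes NRF2, rose in 2MUT by 1.09 (adjusted p = 0.00074 in limma), with -0.31 under 2-HG (adjusted p = 0.17 in limma).

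Of 8 proliferation markers, Ccnb1 and Pcna were not tested. The other 6, Mki67, Top2a, Cdk1, Mcm2, Mcm5 and Rrm2, fell in 2MUT, by log2 fold changes of -2.17 to -1.11, and rose with 2-HG, by 0.38 to 1.34. The part of Atf4, Myc, Nfe2l2, proliferation, or the fibroblast and leukocyte markers in any change of the enzymes was not tested.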

How the data were processed

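Reads of the AmpliSeq libraries were mapped with TMAP and assigned to genes by the AmpliSeqRNA plug-in, and the authors deposited RPM, with 1 table for each experiment. The strand setting is not given in the sources used here. Groups were taken from the labels, and 0 value columns were left without a sample. Within each table, log2(RPM + 1) values were fitted by limma 3.58.1 (R 4.3.3), allowing a trend of variance with mean, for genes averaging at least 1 RPM, with Benjamini-Hochberg adjustment over all genes tested and a threshold of 0.05. At least 99.86% of the values in a library came out as whole reads within 0.05 read. On these reads edgeR 4.0.16 called 1818 genes higher and 1947 lower in 2MUT and 1794 and 1752 with 2-HG, and DESeq2 1.42.0 called 1838 and 1910, and 1901 and 1765. limma called 1826 and 1915, and 1668 and 1737. The difference between the comparisons was fitted over the 12 libraries for the 9594 genes tested in both. The scripts were checked on simulated data.

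The members and lists were chosen with earlier results of these data known. All 9 enzymes, the listed genes past the threshold, the regulators, the proliferation markers and the 5 genes most like Mthfd2 are named; likeness to Phgdh could not be computed. A few genes of the pathway are not reported here, and its counts leave them out. Positions are from GENCODE M21 on GRCm38. RefSeq promoter windows were matched by symbol for 8 of the 9 genes, all but Aldh1l2. The positions of the amplified targets were not used here. Tables and figures were made with pandas 2.3.3 and matplotlib 3.10.9.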

Additional observations from a re-analysis of the deposited data

Results flagged for a closer look

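Of the genes listed beside the enzymes, 11 changed in opposite directions in 2MUT cells and with 2-HG, past limma's adjusted threshold in each comparison. The values are the log2 change in 2MUT minus the log2 change with 2-HG. No p-value is given for them, since genes picked for opposite calls in these libraries are bound to differ between the comparisons. For 5 genes of the pathway they were -1.80 for Tyms, -1.33 for Slc1a5, -1.25 for Ppat, -1.005 for Gart and -0.99 for Pfas. For 6 proliferation markers they were -2.97 for Top2a, -2.84 for Mcm5, -2.78 for Rrm2, -2.54 for Mki67, -2.35 for Cdk1 and -2.17 for Mcm2. The 2MUT calls of Gart, Pfas and Slc1a5 were lost in 6, 7 and 5 of 16 alternatives, and the 2-HG call of Slc1a5 was lost without the third 2-HG(-) library. The cause of these differences was not tested.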

How the results depend on the processing

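Each comparison was repeated under 16 alternatives, 6 of which left out 1 library. The sign of each of the 8 enzymes was the same in 16 of 16 in both comparisons, and 7 of them kept their call with 2-HG in 16 of 16, all but Mthfd1. With an unmoderated per-gene test, 1021 genes were higher and 1223 lower in 2MUT, 1098 higher and 1139 lower with 2-HG, and, of the other genes of the pathway, 3 were higher in 2MUT and 0 lower with 2-HG. DESeq2 called 2 of the 8 enzymes lower in 2MUT, against 1910 of all 11065 genes. Leaving out single libraries gave 0 to 1 enzymes higher (Psat1, without the second Control library) and 0 to 1 lower in 2MUT, and 7 to 8 higher with 2-HG. In 2MUT it gave 4 to 7 other pathway genes higher and 6 to 10 lower, with 6 lower without the second or the third 2MUT library. With 2-HG it gave 11 to 13 higher and 0 to 1 lower, Sardh being lost without the first or the third 2-HG(-) library. Over all genes the ranges were 1271 to 1926 higher and 1484 to 1880 lower in 2MUT, and 1146 to 1745 and 1176 to 1580 with 2-HG. For the pathway genes called in a comparison, which alone were followed under the alternatives, no direction reversed, and they lost a call 43 times in 2MUT (most often for Slc1a4, Pfas and Sptlc2) and 8 times with 2-HG. The cause was not tested.

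In 2MUT and Control, libraries with the same number deviated together with correlations of 0.07, 0.03 and 0.03, beside -0.14 to 0.09 for unlike numbers. In the 2-HG experiment these were -0.46, -0.16 and 0.06, beside -0.41 to 0.48. Values centred within groups of 3 libraries constrain each other, so they cannot decide whether the numbers pair the libraries. The main fits did not pair them. With the replicate number as a block, 1 enzyme was lower in 2MUT (Shmt2), 7 were higher with 2-HG, and 1911 genes were higher and 1987 lower in 2MUT and 1217 and 1286 with 2-HG.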
